A study of Drosophila melanogaster with 144 samples.

Results

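DGRP_892, from the Drosophila Genetic Reference Panel, is labelled as a line with a long circadian period. Transcripts of its heads were compared between the subjective night and the subjective day. The comparison used 72 of the 144 libraries of the series, chosen by line and by labelled circadian time (CT): 36 libraries of CT14 to CT24 were the night and 36 libraries of CT02 to CT12 were the day. Each night or day held 18 female and 18 male libraries, with 3 at each of 12 times in each sex, 2 h apart. Every library came from 150 heads of virgin flies of 1 sex. All flies had been entrained to 12 h of light and 12 h of darkness for 3 days and then kept in constant darkness for 3 days, so the night and the day groups were both dark at collection. The flies had been entrained in a pair of incubators set to reciprocal cycles. Which times came from which incubator is not stated, so time of day and incubator cannot be told apart. The labels also do not say that circadian time was rescaled to the long period of the line. The other 72 libraries, from the line labelled Canton-S B (w1118; Canton-S B in the growth protocol, with a 24-h period), were made in the same way and were used here only to test where the lines differed. The procedure was repeated 3 times, and the replicate number marks the collection run.

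In the fly clock the transcription factors CLK and CYC switch on per and tim, and the PER and TIM proteins later enter the nucleus and shut CLK and CYC off again. Kinases, phosphatases and ubiquitin enzymes set how long this takes by controlling the life of PER and TIM, and a second loop through vri, Pdp1 and cwo shapes the level of Clk and of output genes. In heads of wild-type flies per and tim transcripts are known to be high early in the night and Clk transcript near dawn, with much of the signal coming from the photoreceptors of the compound eye. In whole heads, fewer cells of a type and less RNA per cell cannot be told apart.

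Gene counts per DGRP_892 library, in M (mega, as in Mb), ranged from 12.4 M to 37.1 M, with medians of 14.8 M in the day and 15.5 M at night, and 13 day and 9 night libraries held over 20 M. The summed level of 5 photoreceptor genes was 64340 to 102929 CPM (a gene count divided by the gene counts of its library in M) in the day and 59709 to 101168 CPM at night, and that of 7 neuronal genes was 2324 to 5188 CPM and 2024 to 5752 CPM. A single library, the male CT22 replicate 2, stood apart. It held 596 genes at over 5 times the level of every other DGRP_892 library, whereas the next such library held 7. The summed level of 3 testis and accessory gland markers (Acp26Aa, Mst87F and dj) was 34.1 CPM in it and at most 1.84 CPM in the other 71 libraries. The summed level of 4 gut markers was 187 CPM in it and at most 80.8 CPM elsewhere. Among these 4, alphaTry (74.1 CPM, at most 18.2 elsewhere), betaTry (58.7, at most 12.5) and Jon99Ciii (8.32, at most 4.28) were raised. LManI was not (46.3 CPM, median 45.5 elsewhere). A longer list of 11 gut genes summed to 854 CPM in that library and at most 804 CPM elsewhere. The photoreceptor sum of that library, 86939 CPM, lay inside the range of the others. Results are therefore given with and without that library.

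Of 10441 genes tested, 67 passed an adjusted p of 0.05 between night and day in edgeR's quasi-likelihood test with sex in the model, which is 0.642% of the genes. The called genes were 63 that were higher and 4 that were lower at night, or 0.603% and 0.0383%. For 48 of the 63 higher genes, the male CT22 replicate 2 held over 50% of the summed CPM of all 36 night libraries. These 48 genes were on average at most 0.344 CPM in the day and at most 2.19 CPM at night. Without that library, 9 of 10537 genes passed (0.0854%), and all 9 were among the 67. None of the 48 was among them.

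The 48 genes included genes known from the testis and genes known from the gut. The testis genes were w-cup, ocn, loopin-1, Mst98Ca, Tssk and 5 of the S-Lap sperm aminopeptidase genes. In w-cup the male CT22 replicate 2 stood at 48.4 CPM, the next highest DGRP_892 library at 1.61 CPM, and 49 of the 72 libraries at 0. Among gut genes, the lysozyme LysD stood at 15.6 CPM in it and at most 1.49 CPM elsewhere, and the Jonah protease Jon65Aiii at 36.3 CPM and at most 4.11 CPM. These values describe 1 library and not a difference between night and day.

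**Figure D1:**
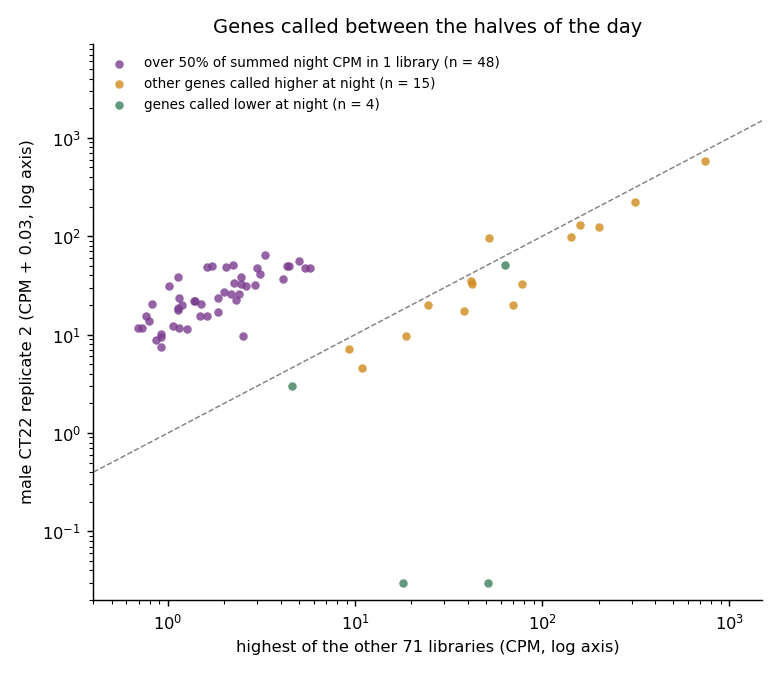
CPM of each of the 67 called genes in the male CT22 replicate 2 (vertical log axis, with 0.03 CPM added so that 0 can be drawn) against its highest value in the other 71 DGRP_892 libraries (horizontal log axis), where the dashed line marks equal values. The 48 genes with over 50% of their night CPM in that library form a separate group above the line, and the other 15 genes called higher at night lie near or below it, except CG16826.

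Of the 9 genes called with and without that library, 7 were higher at night: gol, dy, per, tim, Usp8, CAH9 and Scp1. Of these 7, gol was the only one called when each of the 3 collection runs was left out in turn (edgeR adjusted p = 2.91e-04 to 0.0203). per and tim lost the call without run 2 or run 3 (0.0982 to 0.233), Usp8 and CAH9 without run 1 or run 3 (0.155 to 0.805), and dy and Scp1 without run 1 (0.0603 and 1). The other 2, BaraA1 and FBgn0283462, were lower at night and are described further below. Gene positions are those of the Ensembl annotation of the BDGP6 assembly. The submitters' counts were made on FlyBase release 6.

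The clock repressors per and tim both rose at night. In per (FBgn0003068, chromosome X, 2685580 to 2692780), the partner of TIM in repression, the day libraries ranged from 49.1 to 125 CPM with a median of 74.8, and the night libraries from 58.5 to 202 CPM with a median of 93.4. The ranges, which join the sexes, overlapped, and 2 night libraries lay above the highest day library, each of them male. The means were 77.7 ± 16.8 CPM in the day and 94.9 ± 25.4 CPM at night (SD, n = 36 each), a log2 difference of 0.29 ± 0.06 (SE; edgeR adjusted p = 0.00541). In tim (FBgn0014396, chromosome 2L, 3493986 to 3508119), the day libraries ranged from 377 to 619 CPM (median 511) and the night libraries from 413 to 736 CPM (median 546). Of the night libraries of tim, 8 lay above the whole day range, all of them male. Its log2 difference was 0.12 ± 0.03 (SE; edgeR adjusted p = 0.00726). Both genes were higher at night in all 6 sets of 12 libraries formed by sex and collection run, by 0.11 to 0.45 in per and by 0.05 to 0.18 in tim on the log2 scale.

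The other 6 core clock genes did not pass. Clk, which encodes the activator, went the other way, from 45.1 ± 7.10 CPM in the day to 40.02 ± 7.14 CPM at night (SD, n = 36 each). Its log2 difference was -0.17 ± 0.05 (SE; edgeR adjusted p = 0.116), with the night lower in 6 of 6 sets. The log2 difference was 0.19 ± 0.07 for vri, a repressor of Clk (SE; edgeR adjusted p = 0.417). It lay between 0.02 and 0.05 for cyc, Pdp1, cwo and the blue-light receptor gene cry. Thus 2 of 8 core clock genes were called, with a median log2 difference of 0.04 over the list and 0.00 over all genes tested. The background for this and the later lists is the share called over all genes tested. It was 0.642%, or 0.0854% without the male CT22 replicate 2.

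Among 18 genes listed for kinases, phosphatases and ubiquitin enzymes of the clock, 2 were called, against 0.642% of all genes tested. Both were higher at night, and the list median was -0.02. The list was chosen with earlier results of these data known, so its count of called genes is not a test of the list. The stronger was gol (goliath, FBgn0004919, chromosome 2R, 25072627 to 25084347), which encodes a membrane ubiquitin ligase. Its day libraries ranged from 119.1 to 239.6 CPM with a median of 165, and its night libraries from 129.8 to 313 CPM with a median of 203. The ranges, which join the sexes, overlapped, with 9 night libraries above the highest day library, all of them male. Females went from 146 ± 18.7 to 177 ± 30.0 CPM, and males from 191 ± 18.5 to 237 ± 40.7 CPM (SD, n = 18 each). The log2 difference was 0.30 ± 0.05 (SE; edgeR adjusted p = 3.00e-05), and it was positive in 6 of 6 sets of sex and run (0.18 to 0.36). In Usp8 (FBgn0038862, chromosome 3R, 21134262 to 21138214), a ubiquitin-removing protease reported in flies to act on CLK, the day median was 87.5 CPM (59.3 to 134.4) and the night median 101.9 CPM (68.6 to 142.6). Its log2 difference was 0.21 ± 0.05 (SE; edgeR adjusted p = 0.00777), positive in 6 of 6 sets. The next members by p, CkIIalpha, a subunit of casein kinase 2, and tyf, an activator of per translation, did not pass, with log2 differences of -0.05 and -0.05.

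Of 18 tested genes with head rhythms known from earlier work, only dy (dusky, FBgn0004511, chromosome X, 11769769 to 11778784) was called. It encodes a cuticle-associated membrane protein needed for wing cell shape and was expressed at a low level here. Its day libraries ranged from 0.159 to 7.41 CPM (median 1.92), and its night libraries from 0.0762 to 10.9 CPM (median 3.67). Night and day overlapped widely, also within each sex. Females went from 3.26 ± 1.32 to 5.91 ± 2.98 CPM, and males from 0.883 ± 0.792 to 2.62 ± 1.89 CPM (SD, n = 18 each). The log2 difference of 1.18 ± 0.21 was the highest of the 7 genes (SE; edgeR adjusted p = 5.01e-04), with the night higher in 6 of 6 sets. In this list, takeout (to), whose product binds juvenile-hormone-like ligands and is a clock output of the head, fell just short. Its mean was 120.9 CPM in the day and 96.2 CPM at night, with a log2 difference of -0.34 ± 0.09 (SE; edgeR adjusted p = 0.0520) and the night lower in 6 of 6 sets. With collection run as a block, to passed at -0.36 ± 0.08 (SE; edgeR adjusted p = 0.0200), and without the male CT22 replicate 2 it passed with that block (adjusted p = 0.0427) but not without it (0.187).

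The last 2 of the 7 genes belonged to no list. CAH9 (FBgn0039486, chromosome 3R), a carbonic anhydrase gene, went from 19.5 ± 3.89 to 23.5 ± 6.25 CPM (SD, n = 36 each), a log2 difference of 0.26 ± 0.06 (SE; edgeR adjusted p = 0.00834), and was higher at night in 5 of 6 sets. Scp1 (FBgn0020908, chromosome 2R), which encodes a sarcoplasmic calcium-binding protein, went from 9.37 ± 3.47 to 17.1 ± 13.97 CPM, a log2 difference of 0.88 ± 0.19 (SE; edgeR adjusted p = 0.00726). Its 6 highest libraries were all night libraries of run 1, from 33.2 to 69.8 CPM. The run 1 difference was 1.42 in females and 1.55 in males, whereas those of runs 2 and 3 lay between -0.05 and 0.47. Without run 1 its log2 difference was 0.20 and it was no longer called. The muscle actin gene Act79B, called in all 72 libraries at 0.47 ± 0.12 (SE; edgeR adjusted p = 0.0225) but not without the male CT22 replicate 2 (edgeR adjusted p = 0.1189), also had its highest libraries in run 1. With collection run as a block and without that library it passed (0.41 ± 0.09 SE; edgeR adjusted p = 0.0427). No gene of a list of 12 tested muscle genes was called, and their median log2 difference was 0.09.

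**Figure D2:**
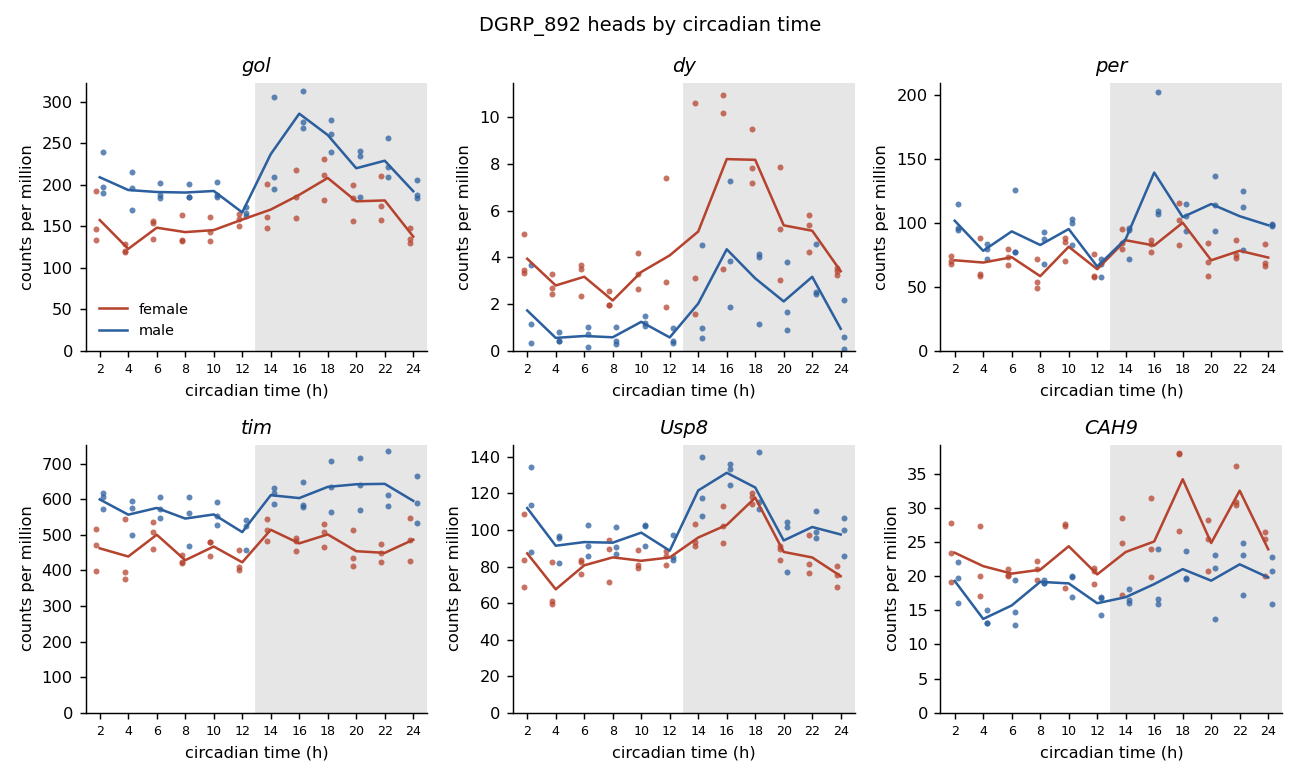
CPM (vertical axes, from 0) of 6 genes called with and without the male CT22 replicate 2, against circadian time in hours, in DGRP_892 females (red) and males (blue). Points are libraries, lines are means of 3 libraries, and grey marks the subjective night. gol and Usp8 rise to their highest means at CT16 and CT18, and are back near their day level by CT24.

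The other genes named by rule for being called, reaching 5 CPM and going the same way in all 6 sets differed by small amounts. CG6293 (0.21), otk2 (0.18), a receptor-tyrosine-kinase-like gene, and CG2017 (0.13) were higher at night, and FBgn0033981, known here only by its identifier, was lower (-0.15 from 41.7 to 37.7 CPM). Their edgeR adjusted p values lay between 0.0216 and 0.0312 in all 72 libraries. Without the male CT22 replicate 2 they lay between 0.0763 and 0.139, so none of these 4 passed. With collection run as a block and without that library, FBgn0033981 passed (-0.16 ± 0.03 SE; edgeR adjusted p = 0.0250).

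Of 26 gene lists, 20 held no called gene. These 20 covered 440 tested genes for phototransduction, ion channels, clock neuropeptides, detoxification enzymes, fat and sugar metabolism, ribosomal proteins, the cell types of the head and others. Of the 440, 48 had an unadjusted edgeR p under 0.05 (10.9%, against 6.50% of all genes tested), and DESeq2 called 0. Other settings called members of these lists, such as Slob with runs of library numbers as a block, Gpdh1 and GstZ2 without the 4 times next to a border, and cd and Cyp6t1 without run 2. The list medians lay between -0.21 for antimicrobial and Bomanin peptides, with Mtk at -0.52 ± 0.18 (SE; edgeR adjusted p = 0.300), and 0.16 for proteins secreted by the fat body. The 3 lists not yet given each held 1 called gene, and none without the male CT22 replicate 2. They were heat shock proteins (Hsp60C, 1 of 15), testis and accessory gland (Mst98Ca, 1 of 2) and gut (Jon65Aiv, 1 of 6).

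BaraA1 and FBgn0283462 had the lowest log2 differences, -6.37 ± 0.96 and -5.70 ± 0.86 (SE; edgeR adjusted p = 3.00e-05 for both), but these rested on 4 libraries. BaraA1 encodes a precursor of antifungal peptides induced by infection, and because it has a near-identical copy its count is uncertain. Only the male CT12 replicate 2, the male CT04 replicate 3, the female CT12 replicate 2 and the male CT10 replicate 3 held it above 1 CPM, at 18.1, 12.6, 9.57 and 7.73 CPM. The same 4 libraries held FBgn0283462 at 27.5 to 51.3 CPM. In the other 68 libraries BaraA1 was at most 0.142 CPM and FBgn0283462 at most 0.389 CPM. All 4 libraries belonged to the day, and the other 32 day libraries were among these 68. Without these 4 and the male CT22 replicate 2, gol (0.30, adjusted p = 6.18e-04) and dy (1.09, adjusted p = 0.0131) were the 2 genes that edgeR called. There per, tim, Usp8, CAH9 and Scp1 had adjusted p values of 0.0566 to 0.0646 with log2 differences of 0.27, 0.13, 0.22, 0.27 and 0.88.

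Whether genes stepped at the border or changed smoothly was tested in several ways. A night-minus-day term was added to a 24-h cosine, so that it measured a step beyond a smooth wave, and the cosine was tested beyond the step. The border jump was the mean of the rise from CT12 to CT14 and the fall from CT24 to CT02. For a pure step this jump equals the night-minus-day difference (a ratio of 1), and for any 24-h cosine it is 0.402 of it.

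No gene other than BaraA1 and FBgn0283462 was called for a step beyond the cosine (2 of 10441, 0.0192%), and these were carried by the 4 libraries above. Without those libraries 0 genes were called and 230 had an unadjusted p under 0.05, against 217 in all 72 libraries. For the border jump edgeR called 0 of 10441 genes (0%), with 246 at an unadjusted p under 0.05. For the cosine beyond the step it also called 0 (0%), with 1087 at an unadjusted p under 0.05. A step and a 24-h cosine overlap much over the 12 times, so testing either beyond the other has little power. The few calls of these tests thus do not show that genes lacked a step or a smooth change. DESeq2 was run only for night against day, where it called 12 genes. A 24-h cosine by itself was called in 1.31% of the genes, and in 22 genes without the male CT22 replicate 2 (0.209%). Among the 7 genes the cosine by itself was called in 7. These 7 were chosen for a night-minus-day difference in the same libraries, and a 24-h cosine takes up much of such a difference. Their count was thus largely fixed by that choice and does not tell a smooth change from a step.

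Shapes were described gene by gene, with no test between genes, and none of the 7 had a step term at an unadjusted p under 0.05. A 24-h cosine described more of the variance of the 12 time means than a step did in 6 of the 7, and in 87.6% of all genes tested. Among the 19 called genes not carried by the male CT22 replicate 2, the step described more in 8 (42.1%). These were Act79B, tim, whe, CG16826, CG2017, Myo28B1, PolE1 and Duox. Of the 19, 5 had a step term at an unadjusted edgeR p under 0.05, and the median border ratio was 0.788. The 19 were chosen for a night-minus-day difference, which favours a step. A cosine has 1 more free coefficient than a step of fixed position. For gol the cosine described 79.4% and the step 57.5%. For dy the values were 74.3% and 51.6%, and for Usp8 they were 65.6% and 35.6%. In these 3 genes the mean border jump was small beside the night-minus-day difference in the model of 24 group means. The ratios were 0.181, 0.270 and 0.155, all below that of a cosine. That mean joins 2 unlike borders. From CT12 to CT14 the 3 genes rose by 0.21 ± 0.09, 1.08 ± 0.49 and 0.22 ± 0.09 (log2, SE). From CT24 to CT02 the estimates were also rises, of 0.11 ± 0.09, 0.43 ± 0.50 and 0.16 ± 0.09. None of these differences passed after adjustment. The small ratios thus do not show that the first border had little change.

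The time means show the course of these 3 genes directly. gol stood between 158 ± 41.6 and 183 ± 38.3 CPM at the 6 day times. It reached 204 ± 55.6 at CT14, 237 ± 58.7 at CT16 and 234.0 ± 34.7 CPM at CT18. It was back to 165 ± 31.3 CPM at CT24, inside the day range (SD, n = 6 at each time). Its fitted peak was at 17.9 h. Usp8 also rose, from 86.8 ± 5.78 CPM at CT12 to 120.5 ± 11.3 at CT18, and was at 86.2 ± 14.7 CPM at CT24. Its largest fall between neighbouring times was from CT18 to CT20 (-0.36 ± 0.09 SE on the log2 scale). That of gol was from CT22 to CT24 (-0.29 ± 0.09 SE), after -0.19 ± 0.09 from CT18 to CT20. None of these falls passed after adjustment. dy rose from 2.33 ± 2.68 CPM at CT12 to 6.28 ± 3.76 at CT16 and was at 2.18 ± 1.52 CPM at CT24. Thus the time means of these 3 genes rose mainly from CT12 to CT16, though no rise between neighbouring times passed after adjustment. Their CT24 means lay inside the range of the means of the 6 day times.

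tim was nearest to a step. The step described 72.2% of the variance of its time means and the cosine 61.3%, and its border ratio was 1.06. Its mean was 465 ± 58.1 CPM at CT12, and all 6 night times lay between 539.5 ± 74.7 and 568 ± 88.4 CPM. The day times lay between 465 and 538 CPM, so the CT06 mean (538 ± 51.6) was close to the lowest night mean (SD, n = 6 each). The term for a step beyond the cosine was 0.13 ± 0.07 (SE) with an unadjusted p of 0.0604, and the border jump of 0.13 ± 0.05 (SE) had an unadjusted p of 0.00901 in edgeR. Neither passed after adjustment over all genes. In the model of 24 group means 5 genes were called between night and day (0.0479%), which were gol, dy, Usp8, per and CAH9, the same 5 without the male CT22 replicate 2. per lay between, with 53.9% for the step, 55.9% for the cosine and a ratio of 0.659. Its lowest mean was at CT12 (64.8 ± 7.92 CPM) and its highest at CT16 (110.8 ± 46.5 CPM, of which the male replicate 3 at 202 CPM was the highest library). For Act79B and CG2017 the step also described more than the cosine, with ratios of 1.02 and 0.862.

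**Figure D3:**
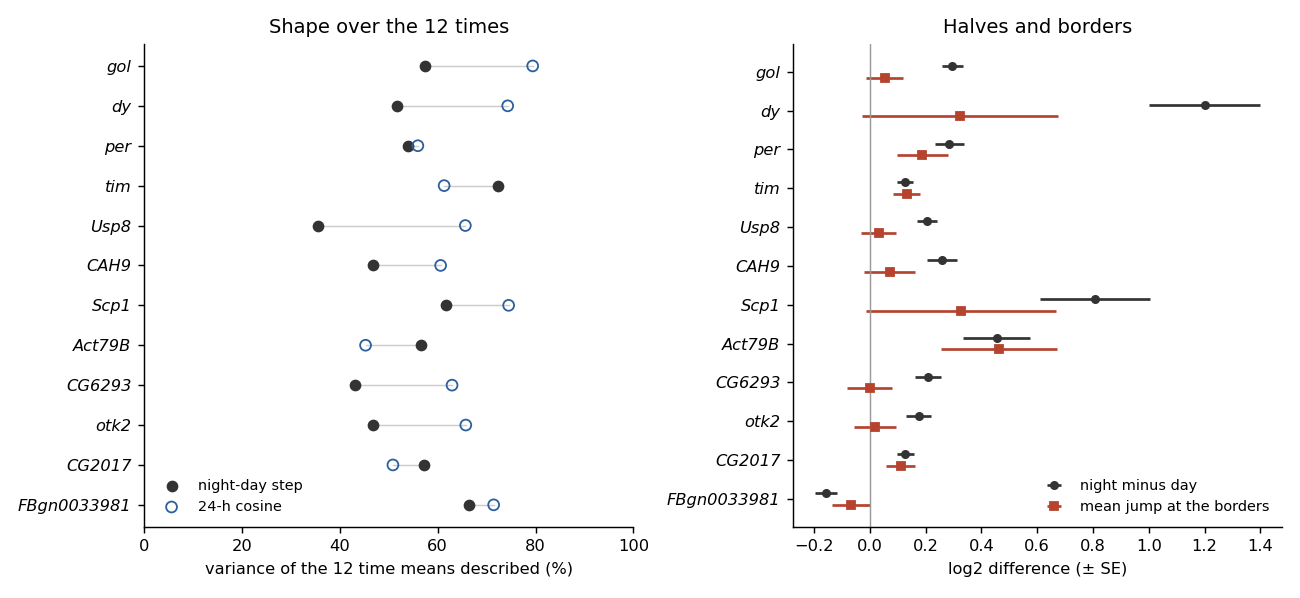
Left, percent of the variance of the 12 time means described by a night-day step (filled) and by a 24-h cosine (open) for 12 genes. Right, night-minus-day log2 difference (black) and mean border jump (red) with SE from the model of 24 group means. The border jump is near 0 for gol, Usp8, CG6293 and otk2, and as large as the night-minus-day difference for tim and Act79B.

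Of the 11 named genes that were higher at night, 5 had their highest time mean at CT16, 5 at CT18 and 1 (CG6293) at CT22, and none at CT14 or CT24, next to a border. The lowest mean fell at CT04 in 5, at CT12 in 4 and at CT08 in 2. These 11 genes were chosen for being higher at night, so a highest mean in the night was fixed by that choice.

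Neighbouring times were compared across all genes to see how the borders ranked among the 12 intervals. edgeR called 0 genes from CT12 to CT14, with 382 at an unadjusted p under 0.05, and 0 from CT24 to CT02, with 276. The latter was the lowest of all 12 intervals, and its median absolute log2 difference (0.07) was the smallest. This order depended on the run. Without run 1, CT24 to CT02 had 516 genes and CT06 to CT08 had 245, and without run 2, CT12 to CT14 had 990, next to 1411 from CT10 to CT12. The interval from CT10 to CT12, inside the day, had 45 called genes (0.431%), 33 higher and 12 lower at CT12, and 52 without the male CT22 replicate 2. The intervals CT20 to CT22 and CT22 to CT24 had 11 (0.105%) and 32 (0.306%) called genes, and 1 each without that library. The other 9 intervals had 0 called genes each, with 365 to 798 at an unadjusted p under 0.05 among the 7 that are not borders.

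At CT12 transcripts of the mitochondrial genome stood high. From CT10 to CT12, 8 of 15 mitochondrially encoded genes were called higher and 0 lower in edgeR, with a list median of 1.39 against 0.02 over all genes tested. The log2 differences of the 15 ran from -0.997 to 2.96. mt:ND4, a subunit of respiratory complex I, went from 214 ± 43.1 to 889 ± 604 CPM (SD, n = 6 each), a log2 difference of 2.11 ± 0.39 (SE; edgeR adjusted p = 0.0149). The sum of the list ranged from 19544 to 45145 CPM at CT10 and from 48123 to 118325 CPM at CT12, without overlap. CT12 had the highest mean sum of the 12 times (75441 ± 24267 CPM). CT10 had the lowest (33655 ± 9909 CPM), after 52067 ± 15771 CPM at CT08 (SD, n = 6 each). The CT12 range did overlap those of other times, such as CT06 (38341 to 85273 CPM) and CT14 (25814 to 82310 CPM). From CT12 to CT14 the list median was -0.77 and no member passed. Also rising at CT12 were CaMKII, a neuronal kinase, from 243 ± 73.2 to 387 ± 118.5 CPM and the glutamate receptor gene mGluR from 30.4 ± 9.93 to 44.8 ± 8.68 CPM (SD, n = 6 each). CaMKII and mGluR were singled out after their values were seen. No gene of this interval was called when any 1 collection run was left out (982 to 1643 at an unadjusted p under 0.05 in edgeR). None was called with ERCC scaling, which moved the median log2 difference of all genes from 0.02 to -0.18. ERCC scaling also moved the median of the step term from -0.01 to 0.15.

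**Figure D4:**
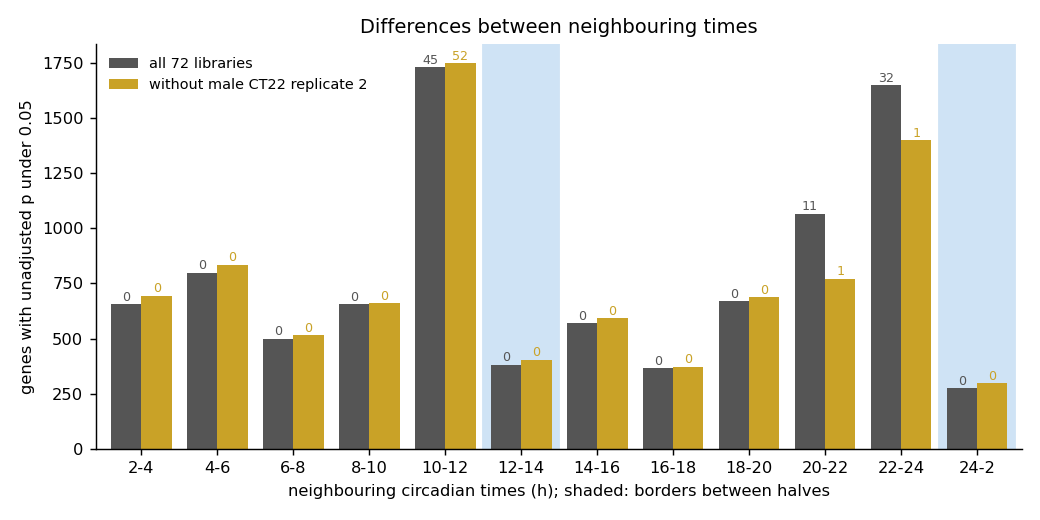
Number of genes with an unadjusted p under 0.05 (bars, vertical axis) and number called after adjustment (printed over the bars) for each pair of neighbouring circadian times, with all 72 libraries (grey) and without the male CT22 replicate 2 (yellow). The shaded borders between day and night, at CT12 to CT14 and CT24 to CT02, have 382 and 276 genes and none called.

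The sexes were compared for the night-minus-day difference. In each sex by itself edgeR called 0 genes in females (422 at an unadjusted p under 0.05) and 2 in males, BaraA1 and FBgn0283462. For gol the log2 difference was 0.29 ± 0.07 in females and 0.31 ± 0.06 in males, and for per 0.24 ± 0.07 and 0.32 ± 0.10 (SE). For dy it was 0.83 ± 0.21 in females and 1.61 ± 0.36 in males (SE). In the test of the difference between the sexes 4 genes passed (0.0383%). These were Acp1, CG8736, Cpr97Ea and CG7214, with male-minus-female differences of -6.64, -4.21, -4.22 and -4.95 on the log2 scale. Cpr97Ea encodes a cuticle protein. Their highest values were in the female CT22 replicate 2 (CG7214 at 163 CPM, next highest library 21.4 CPM) or in the male CT06 replicate 2 (CG8736 at 84.9 CPM, next 41.5 CPM). Without these 2 libraries 0 genes passed, with 245 at an unadjusted p under 0.05. With collection run as a block edgeR also called 0, with 201.

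Canton-S B served to ask which differences were smaller or larger in DGRP_892. In 1 model over all 144 libraries, 542 of 10894 genes (4.98%) were called between night and day in Canton-S B and 1.26% in DGRP_892. Without the male CT22 replicate 2 of DGRP_892, 8 genes were called in that line. Of 47 genes that differed between the lines without that library, 29 had their highest Canton-S B value in the Canton-S B male CT22 replicate 1. That library was kept in these counts, so the counts of the lines are not set against each other. The test of the difference between the lines called 11 genes (0.101%). For gol the log2 night-minus-day difference was 0.90 ± 0.06 in Canton-S B and 0.30 ± 0.06 in DGRP_892, a difference of -0.60 ± 0.09 (SE; edgeR adjusted p = 8.82e-06). For per it was 0.80 ± 0.07 and 0.29 ± 0.07, a difference of -0.52 ± 0.10 (SE; edgeR adjusted p = 0.00247). For Usp8 it was 0.56 ± 0.05 and 0.21 ± 0.05, a difference of -0.35 ± 0.08 (SE; edgeR adjusted p = 0.0195). All 3 were thus higher at night in both lines and by less in DGRP_892.

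For tim, dy and FBgn0033981 the difference between the lines did not pass after adjustment. For FBgn0033981 it was 0.28 ± 0.07 (SE; edgeR adjusted p = 0.0712), with -0.44 ± 0.05 in Canton-S B and -0.16 ± 0.05 in DGRP_892. For tim the values were 0.16 ± 0.03 in Canton-S B and 0.12 ± 0.03 in DGRP_892, a difference of -0.03 ± 0.05 (SE; edgeR adjusted p = 0.996). For dy they were 2.22 ± 0.25 and 1.19 ± 0.20, a difference of -1.02 ± 0.32 (SE) with an adjusted p of 0.442 in edgeR. A p above the threshold does not show that the lines act alike. CG33110 and CG31300 passed with differences of -0.29 and 0.29, and neither was called in DGRP_892, where their differences were -0.06 and 0.01. In Canton-S B they were 0.23 and -0.29. Of the 6 further genes, FBgn0283462, CG13043, CG34217 and CG33965 had a mean under 5 CPM in the night and the day of both lines, and Myo28B1 and CG34180 completed the 11. When 1 collection run was left out at a time, gol kept its call each time, per lost it without run 2 (edgeR adjusted p = 0.0746) and Usp8 lost it without each run (0.0650 to 0.307). With ERCC scaling none of gol, per and Usp8 was called (edgeR adjusted p = 1.00 for each), at differences of -0.62, -0.59 and -0.39.

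**Figure D5:**
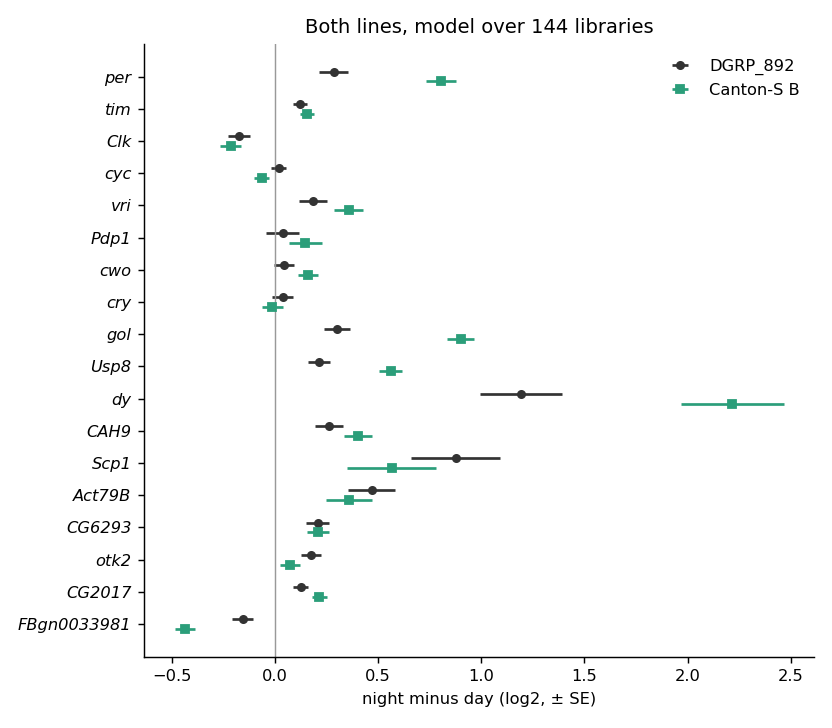
Night-minus-day log2 difference with SE (horizontal axis) in DGRP_892 (black) and Canton-S B (green), from 1 model over 144 libraries, for 8 core clock genes and 10 named genes. The lines are apart for per, gol and Usp8, which passed for a line difference, and also for dy and FBgn0033981, which did not. They are close together for tim, Clk and CG6293.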

How the data were processed

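The deposited counts are reads per gene, made by the authors with STAR 2.5.3a and featureCounts 1.5.2, with FastQC 0.11.5, per the submitters' processing notes. Reads were mapped to FlyBase release 6, per the series' design text. No source used here gives the strand setting for featureCounts, so overlaps on opposite strands (per with dyw, gol with tRNA genes, tim and vri with non-coding RNAs, cry with vib) cannot be told apart. Clk overlaps CG32371 on its own strand. A second deposited table, used only as an alternative, holds the authors' TMM-normalized and batch-corrected scores, of which 3.31% are negative. The count table has 1 column mapped to no sample, headed Gene and empty.

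From the counts, 92 ERCC spike-in rows were left out. Genes passed edgeR's filterByExpr (minimum count 10, minimum total 15, on 24 sex-by-time groups), leaving 10441 of 17381 genes, which held 99.96% of counts. TMM scaling and edgeR 4.0.16 (R 4.3.3) quasi-likelihood fits with Benjamini-Hochberg adjustment over all tested genes were used, and a gene was called at an adjusted p under 0.05. DESeq2 1.42.0 and limma 3.58.1 (batch-corrected values, log2(value + 20)) were alternatives. CPM is a gene count divided by the gene counts of its library in M (mega), without TMM. Of 17381 gene identifiers, 17239 matched a symbol in the Ensembl annotation. Models were run on simulated data with planted steps and cosines larger than the differences of gol, per, tim, Usp8 and CAH9. That run does not show how the models act on such small differences. Depth was 12.4 M to 37.1 M gene counts, which limits genes of a few CPM.

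The design was: sex and night against day, with a 24-h cosine and sine added for the step tests, 24 group means for borders and neighbouring times, and interaction terms for sex and line. Named genes were up to 10 in each direction among called genes of at least 5 CPM in a group mean with the same sign in 6 sets of sex and run, and up to 5 of the line comparison. Genes called without the male CT22 replicate 2, and those singled out in other places, were named after their values were seen. The members and lists were chosen with earlier results of these data known. Alternatives were other scaling (DESeq2 size factors, ERCC), no filter, a block for collection run or for runs of 24 library numbers, single sexes, depth classes, leaving out replicates or border times, and settings added after seeing the data.

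Replicate numbers pair the libraries, since the labels tie each number to 1 repeat of the whole procedure. Over genes, deviations from the sex-by-time means correlated between night and day of the same number at r = 0.445, 0.372 and 0.412. The labels call the 3 replicates biological.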

Additional observations from a re-analysis of the deposited data

Results flagged for a closer look

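The night-minus-day difference differed between the lines, in an interaction test over 144 libraries, for gol (-0.60 on the log2 scale, DGRP_892 minus Canton-S B), per (-0.52), Usp8 (-0.35), CG33110 (-0.29) and CG31300 (0.29). All 5 kept their direction in the 9 other settings, but the call was lost in 1 of them for gol, 2 for per, 4 for Usp8 and 3 each for CG33110 and CG31300, with ERCC scaling among them for all 5.

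It differed between males and females of DGRP_892, in an interaction test over 72 libraries, for Acp1 (-6.64, male minus female), CG8736 (-4.21), Cpr97Ea (-4.22) and CG7214 (-4.95). None of the 4 passed with collection run as a block or without the female CT22 replicate 2 and the male CT06 replicate 2.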

How the results depend on the processing

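The night-against-day count of 67 genes changed with most settings. Without a filter on low counts it was 691. With 24 group means it was 5, with DESeq2 12, with collection run as a block 20, with 48 group means over all 144 libraries 2, and with the authors' batch-corrected values 21. The deeper libraries gave 0 (1107 at an unadjusted p under 0.05 in edgeR), the shallower 5, females 0 and males 2. Leaving out 1 collection run gave 17 to 61 genes. Settings added after seeing the data left out the male CT22 replicate 2 and gave 9 genes, 5 with 24 group means, 13 with the replicate block, 38 with runs of library numbers as a block and 0 in males (264 at an unadjusted p under 0.05). Leaving out all 5 libraries that carried single-library genes gave 2. Runs of library numbers as a block gave 49 genes in all 72 libraries, 26 higher and 23 lower against 63 and 4, with 18 shared with the 67. DESeq2 size factors in edgeR gave 72, ERCC scaling 49, and leaving out the 4 times next to a border 76.

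gol kept its call without each of the 3 runs, at 0.27 to 0.35 on the log2 scale. ERCC scaling lost the calls of gol, per, tim, Usp8 and CAH9 at nearly the same log2 differences (0.31, 0.26, 0.13, 0.21 and 0.29), and the median of all genes was 0.00. With 24 group means, tim was not called (adjusted p = 0.0758). With the replicate block and without the male CT22 replicate 2, Scp1 was not called. The 9 genes called with and without the male CT22 replicate 2 kept their sign in every setting that tested them. So did Act79B, CG6293, otk2, CG2017 and FBgn0033981. Some genes carried by that library changed sign without it, such as ocn (3.30 to -0.15) and Jon65Aiii (3.45 to -0.35).

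For the step beyond the cosine, 0 genes were called with 12-h terms added, with the batch-corrected values, with library-number runs as a block, in females, in males and without the 5 libraries, 1 with ERCC scaling, and 0 to 2 when leaving out a run. The cosine beyond the step gave 168 genes without a filter, 54 with 24-h and 12-h terms together, 1 without the 5 libraries, and 0 to 3 when leaving out a run. The border jump gave 0 in all of its settings. The sex difference gave 6 genes without a filter, 5 without the male CT22 replicate 2 and 2 with ERCC scaling. It gave 0 with the replicate block, without the female CT22 replicate 2 and the male CT06 replicate 2, and without each run. The line difference gave 2 with ERCC scaling, 2 to 45 when leaving out a run and 47 without the male CT22 replicate 2, of which 29 had their highest Canton-S B value in the male CT22 replicate 1 of that line. It gave 12 without both libraries, 11 of them among the main 11. The causes were not tested. Genes of a few CPM, such as dy, are limited by depth.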

Other observations

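With runs of library numbers as a block, some genes of the head passed that did not pass without a block in all 72 libraries. The night was lower in takeout (-0.40 ± 0.08 SE on the log2 scale; edgeR adjusted p = 0.00647) and CG10513 (-0.27 ± 0.05; adjusted p = 0.00365). The night was higher in Slob, a regulator of the Slowpoke potassium channel (0.14 ± 0.03; adjusted p = 0.0127), and in inaF-B (0.21 ± 0.04; adjusted p = 0.00365). These 4 also passed with that block and without the male CT22 replicate 2, at adjusted p values of 0.0132, 0.00588, 0.0184 and 0.00588. All 4 also passed with the authors' batch-corrected values, and takeout and CG10513 without the 4 times next to a border. vri passed with the block (0.23 ± 0.06; adjusted p = 0.0382) but not without that library (adjusted p = 0.0698). The alternative was planned, and the genes were named after their values were seen.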
